A study of Mus musculus with 5 samples.

Results

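The genes of V(D)J recombination and of the end joining that completes it were described by the H3K27ac peaks at and around them. The 10 genes were chosen by name: Rag1, Rag2 and Dntt, which are used in developing lymphocytes, and Dclre1c, Prkdc, Xrcc4, Xrcc5, Xrcc6, Lig4 and Nhej1, which repair DNA ends in most cells. They were 10 of 21887 protein-coding genes on the assembled mouse chromosomes, and each was found in the gene table.

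H3K27ac, acetylation of lysine 27 of histone H3, marks active promoters and enhancers. It was measured by ChIPmentation, in which Tn5 transposase adds sequencing adapters to immunoprecipitated chromatin. The cells were CD45.2+ Lineage- Sca1+ Kit+ mouse bone marrow cells, labelled HSC/MPP (haematopoietic stem cells and multipotent progenitors) and Mll3/4 deleted. There were 4 H3K27ac libraries and 1 input library, all of this genotype, and 1 deposited list of 22948 peaks for the H3K27ac libraries together over the input. A library of another genotype, the way in which the genes were deleted, and the age of the mice were not part of the sources used here. The list holds no value of a single library. It therefore gives no replicate error, no statistical test and no change caused by the deletion, and read depth is unknown. Each peak has a signal value, the authors' ratio of H3K27ac over background, whose median over the list was 3.27, with 1.44 as the lowest and 34.05 as the highest. For 4859 peaks the q-value exceeded 0.05, and a gene without a peak may still carry acetylation below what the authors' calling detects.

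In V(D)J recombination, the RAG1 and RAG2 proteins together cut DNA beside the gene segments of immunoglobulins and T-cell receptors. The cut leaves hairpin ends, which are held by the Ku proteins and the kinase DNA-PKcs, opened by Artemis and sealed by DNA ligase IV with XRCC4 and XLF. Terminal transferase, the product of Dntt, adds bases to the ends before they are sealed. Rag1, Rag2 and Dntt are switched on in early lymphoid progenitors, while the sealing machinery also repairs ordinary double-strand breaks.

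The labelled cell type was checked against marker genes. A peak at an end of a gene means here a peak overlapping a window that reaches 1 kb in both directions from an end of the gene. Such a peak was present at 36.2% of all protein-coding genes. It was present at 4 of 10 HSC/MPP markers (Kit, Flt3, Slamf1 and Meis1) and at 8 of 10 B-lineage markers. Of the other lists, 2 of 10 T-lineage, 2 of 6 plasmacytoid dendritic, 1 of 5 erythroid and 0 of 5 granulocyte markers had a peak at an end. B-lineage markers thus carried peaks alongside Rag1, Rag2 and Dntt, and whether these peaks came from all sorted cells or from some of them was not tested.

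The sequences just upstream of the starts differed between the lymphoid-specific and several of the general genes, and they are shown because the peaks described next lie over or beside them. Starts and sequences come from RefSeq (GRCm38.p6), whose promoter table held 9 of the 10 genes. Prkdc did not match. Each line runs 5′ to 3′ towards the gene's start, and capitals mark CG dinucleotides (CpG). For Rag1 (chr2:101649533-101649782, minus strand), Rag2 (chr2:101624462-101624711, plus strand) and Dntt (chr19:41029025-41029274, plus strand) the 250 bases before the start are given. For Xrcc4 (chr13:90089609-90089666, minus strand) and Xrcc6 (chr15:82016259-82016368, plus strand) the whole stretch between the start and the facing end of the neighbouring gene is given, which is 58 bases to Tmem167 and 110 bases to Desi1.
Rag1: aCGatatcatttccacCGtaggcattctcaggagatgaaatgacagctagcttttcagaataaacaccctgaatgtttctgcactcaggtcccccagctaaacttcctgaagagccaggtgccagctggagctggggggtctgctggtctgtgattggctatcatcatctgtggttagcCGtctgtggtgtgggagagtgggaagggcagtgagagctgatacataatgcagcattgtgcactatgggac
Rag2: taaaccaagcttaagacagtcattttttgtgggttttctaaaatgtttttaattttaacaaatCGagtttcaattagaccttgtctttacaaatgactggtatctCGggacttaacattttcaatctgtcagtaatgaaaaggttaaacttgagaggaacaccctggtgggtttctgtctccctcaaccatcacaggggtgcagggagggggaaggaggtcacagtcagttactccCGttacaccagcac
Dntt: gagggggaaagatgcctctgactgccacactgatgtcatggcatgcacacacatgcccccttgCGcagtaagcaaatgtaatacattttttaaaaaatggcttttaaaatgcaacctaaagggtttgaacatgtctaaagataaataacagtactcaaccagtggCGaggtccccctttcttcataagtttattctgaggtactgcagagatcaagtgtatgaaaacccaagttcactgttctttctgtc
Xrcc4: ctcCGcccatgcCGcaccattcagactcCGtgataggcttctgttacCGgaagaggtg
Xrcc6: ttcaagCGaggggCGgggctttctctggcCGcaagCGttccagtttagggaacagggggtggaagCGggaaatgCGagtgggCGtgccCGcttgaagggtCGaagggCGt
The 250 bases before the start held 3 CpG at Rag1, 3 at Rag2 and 2 at Dntt. The stretch of 58 bases at Xrcc4 held 4 CpG and that of 110 bases at Xrcc6 held 10, although both are shorter.

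Rag1 (chr2:101638252-101649532, minus strand, 11281 bp), which encodes the catalytic subunit of the recombinase, lay almost wholly inside a single peak. This peak, chr2:101638260-101649950, was 11691 bp wide and was the 14th widest of the list. Its signal value was 9.31, with −log10 q at 31.3. It covered the start of the gene and 99.9% of its length, a share that 61 protein-coding genes, or 0.279%, reached or exceeded. Its summit lay 7.06 kb downstream of the start. A weak second peak, with a signal value of 2.69, lay beside the 3′ end.

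Rag2 (chr2:101624712-101632528, plus strand, 7817 bp), which encodes the regulatory partner of RAG1, faces Rag1 across 5.72 kb, so that the 3′ ends of both genes point at each other. A peak of 7955 bp, chr2:101622647-101630601, covered its start and most of the gene. It was the 58th widest peak of the list and its signal value was 6.76, with −log10 q at 18.5. Its summit was 1.23 kb downstream of the start. With a second peak in the gene (signal value 2.78), 85.1% of Rag2 was covered. The same wide peak also reached an end of Iftap, a gene on the minus strand that overlaps the start of Rag2, so acetylation of these genes could not be separated there.

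Rag1 and Rag2 have the same 10 peaks within 100 kb, and their counts are therefore not independent. Of these, 4 are the peaks at the ends of Rag1 and Rag2. Another 4 lay inside Iftap. Of these, 1 was 2.89 kb upstream of the Rag2 start (signal value 3.33), and the other 3 had summits 26.3, 24.5 and 23.2 kb upstream of the Rag2 start and signal values of 2.37, 2.66 and 3.42 in that order. On the other side of Rag1, 1 peak lay at an end of Traf6 (signal value 4.01), a signalling adaptor gene, and 1 inside it (signal value 2.66).

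3 known regulatory elements of the Rag locus were looked up by their approximate distance from the Rag2 start, with a tolerance of 2 kb. The distances are background knowledge and were not taken from the deposited files. Erag, an enhancer used in B-lineage cells, is placed 23 kb upstream. The peaks with summits at 24.5 and 23.2 kb met this position, the nearer summit being 0.235 kb from it. That nearer peak, chr2:101600817-101602359, was 1543 bp wide with −log10 q of 5.91. No peak was found at D3, placed 8 kb upstream, where the nearest summit was 5.11 kb away. No peak was found at the anti-silencer element ASE, placed 73 kb upstream, which is used in thymocytes. The nearest summit was 46.7 kb from it. With only peaks of signal value 4 or more, 0 of the 3 elements had a peak.

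Dntt (chr19:41029275-41059525, plus strand, 30251 bp) had the strongest peak at an end among the 10 genes. This peak, chr19:41027718-41032980, was 5263 bp wide, covered the start and reached a signal value of 11.11, with −log10 q at 41.8. Its summit was 1.30 kb downstream of the start. Past it, 5 more peaks lay in the body of the gene, with summits from 4.07 to 19.7 kb downstream of the start and signal values from 2.37 to 3.76. A peak at the 3′ end had a signal value of 2.38. Peaks covered 22.5% of Dntt.

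Upstream of Dntt, outside any protein-coding gene, 4 further peaks led up to the start. Their summits were 15.4, 14.1, 8.02 and 2.94 kb from it, with signal values of 5.32, 2.78, 4.96 and 2.91, and the third of them was 5586 bp wide. Joined across gaps of up to 1 kb, these 4 peaks, the start peak and the first body peak formed a region of 20435 bp, chr19:41013070-41033504. This was the 12th widest of 17810 joined regions. The corresponding regions at Rag1 (12817 bp) and Rag2 (10388 bp) were the 47th and 99th widest. Beyond the region upstream of Dntt lies Blnk, which encodes an adaptor of B-cell receptor signalling. A peak of 11747 bp covered an end of Blnk, with its summit 36.3 kb upstream of the Dntt start, 8 peaks lay inside Blnk and 1 just outside it. Of the 22 peaks within 100 kb of Dntt, 10 were thus at Blnk, and which gene they act on was not measured.

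**Figure D1:**
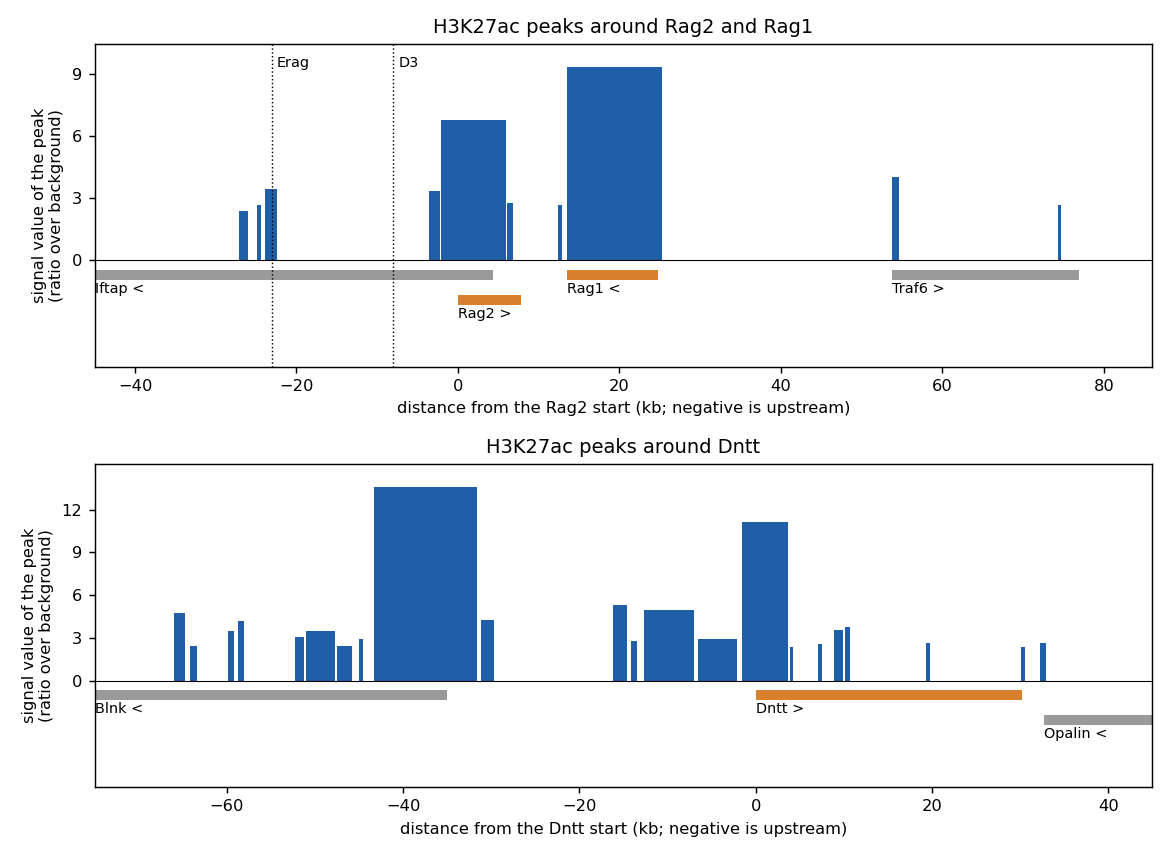
Peaks around Rag2 and Rag1 (top) and Dntt (bottom), as blue boxes whose width is the peak and whose height is its signal value, against the distance in kb from the start of Rag2 or Dntt. Genes are drawn below as bars (orange for Rag1, Rag2 and Dntt, with > or < for the strand), and dotted lines mark the positions of Erag and D3. A box covers 99.9% of Rag1, and boxes lead up to the Dntt start from 15.4 kb upstream.

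Among the general genes, Xrcc5 and Xrcc6 encode the Ku subunits that bind broken ends. Xrcc5 (chr1:72307417-72394953, plus strand) had 1 peak at an end, chr1:72306812-72307913, which covered its start with a signal value of 3.30 and a width of 1102 bp. There was no peak in its body of 87537 bp. Xrcc6 (chr15:81987833-82040085, plus strand) had no peak at an end of its gene record. The record begins 28.5 kb upstream of the start in the promoter table, and at that start there were 2 peaks. These were chr15:82014416-82016074, with a signal value of 6.12, and chr15:82016518-82017986, with a signal value of 3.73. Another pair of peaks lay 12.4 and 13.5 kb downstream of this start, with signal values of 6.09 and 3.03. Xrcc6 was thus the general gene with the most peaks in its body, 5 by gene record, with the 2 at that start included.

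Prkdc (chr16:15637444-15842239), which encodes DNA-PKcs, had a peak of 1836 bp at its low-coordinate end, chr16:15636517-15638352, with a signal value of 5.72. An end of Mcm4, a subunit of the replication helicase, lies 44 bp from that end, and the peak covered both. A second peak inside Prkdc, 2120 bp wide, had a signal value of 4.32. Dclre1c (chr2:3424061-3474211, plus strand), which encodes Artemis, had 4 peaks at its ends. The pair at its start had signal values of 3.21 and 4.83, the first of them also within 1 kb of an end of Meig1. The pair at its 3′ end, with 4.47 and 7.93, was also at an end of Suv39h2, a histone methyltransferase gene that overlaps Dclre1c, so the highest value at an end of Dclre1c was at a neighbour.

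Xrcc4 (chr13:89848914-90089608, minus strand), Lig4 (chr8:9970020-9977680, minus strand) and Nhej1 (chr1:74967346-75125226, minus strand) encode the ligase complex and its partner XLF. Xrcc4 had a peak on each side of its start, with signal values of 4.93 upstream and 3.18 downstream, and a weak peak (2.51) in its body 32.9 kb from the start. Lig4 had a peak at its end towards Abhd13 with a signal value of 3.64 and another in its body with 3.18. Nhej1 had a single peak at an end, 395 bp wide with a signal value of 2.81, which was the lowest of the highest values at an end over the 9 genes with such a peak, and no peak in a body of 157881 bp.

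Counted together, 9 of the 10 genes had a peak at an end, against 36.2% of all protein-coding genes. These were 3 of 3 lymphoid-specific and 6 of 7 general genes, Xrcc6 being the exception by gene record. Counted at the starts of the promoter table instead, 9 of 9 genes had a peak within 1 kb, against 38.0% of 17492 protein-coding genes with a start. Over the whole list, presence of a peak did not separate the classes. When −log10 q had to reach 5, or the signal value 4, the 3 lymphoid-specific genes still had a peak at an end, while the general genes with one went from 6 to 3 of 7. The 36.2% holds for the whole list. The share of all protein-coding genes under these bounds is not given here, so this loss has no background. The highest signal value at an end was 9.31, 6.76 and 11.11 at Rag1, Rag2 and Dntt. It was 2.81 to 7.93 at the 6 general genes with a median of 4.29, against a median of 4.71 over all 7929 genes with such a peak. Dclre1c, through the Suv39h2 peak, overlapped the lymphoid-specific range, and the other 5 lay below it.

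The widths did not overlap between the classes. The widest peak at an end was 11691, 7955 and 5263 bp at Rag1, Rag2 and Dntt, and 395 to 1836 bp at the 6 general genes. The median over all 7929 genes was 1150 bp. Rag1, Rag2 and Dntt stood at percentiles 99.8, 99.5 and 98.5 of these genes by width and 91.5, 76.9 and 96.6 by signal value. The general genes stood at percentiles 5.45 to 75.8 by width. A peak of 5 kb or more, a bound chosen after the widths were seen, lay at an end of 3 of 3 lymphoid-specific and 0 of 7 general genes, against 0.599% of all protein-coding genes. The higher signal value at lymphoid-specific ends rests on counting any overlap with the 1 kb window. When the summit itself had to lie in the window, the difference of the class medians went from 5.02 to -1.70, because the summits of the wide peaks lay 1.23 to 7.06 kb inside the genes.

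**Figure D2:**
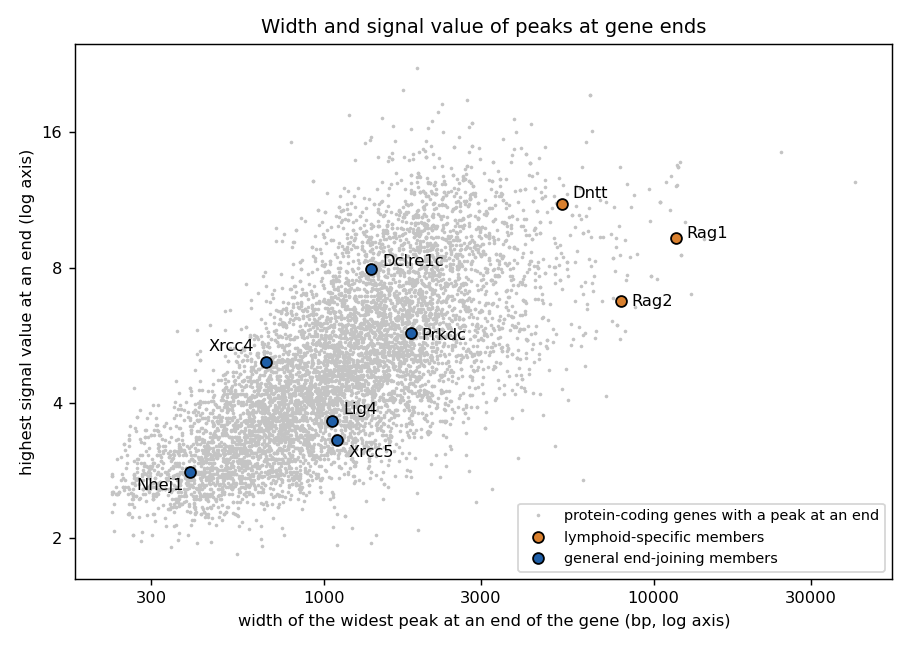
Width of the widest peak and highest signal value at an end, both on log axes, for every protein-coding gene with a peak at an end (grey points) and for the 9 genes with such a peak (orange for lymphoid-specific, blue for general). Rag2, Rag1 and Dntt lie at the wide edge of the grey points, from 5263 to 11691 bp. The 6 general genes with such a peak lie from 395 to 1836 bp, with Nhej1 the narrowest and at percentile 5.45 by width and 9.28 by signal value.

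The starts showed how the peaks were laid out. A start lay inside a peak at Rag1, Rag2 and Dntt, and at Xrcc5 alone of the general genes, which is 4 of 9 genes against 19.8% of all genes with a start. At Dclre1c, Xrcc4 and Xrcc6 the start lay in a gap between peaks whose nearer edges were within 1 kb on both sides, which is 3 of 9 genes against 5.03%. The gaps were 190, 164 and 443 bp wide. Lig4 has 2 starts, and both lay in the same gap of 1704 bp between its peaks. At Nhej1 the only peak within 1 kb began 692 bp from the start on the downstream side. The starts of the lymphoid-specific genes thus sat inside wide peaks, and those of 4 general genes sat between peaks of 409 to 1659 bp. The gaps rest on weak peaks: when −log10 q had to reach 5, or the signal value 4, the number of genes with a start in a gap within 1 kb of peaks on both sides went from 3 to 0.

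**Figure D3:**
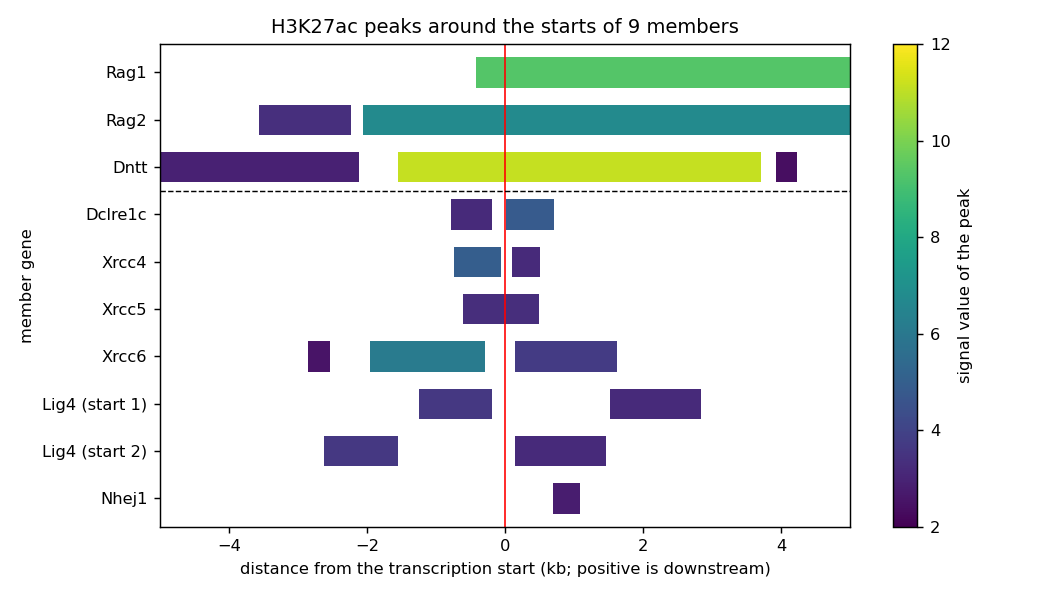
Peaks within 5 kb of the starts of 9 genes, drawn as boxes coloured by signal value against the distance in kb from the start (red line, downstream to the right). Boxes cross the line at Rag1, Rag2, Dntt and Xrcc5, and the line falls in a gap at Dclre1c, Xrcc4, Xrcc6 and both starts of Lig4.

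The neighbours of the starts differed too. Another protein-coding gene ended or began within 500 bp of a start at 11.3% of all genes with a start. This held for Xrcc4 (Tmem167, 59 bp away), Xrcc6 (Desi1, 111 bp), Lig4 (Abhd13, 37 bp) and Nhej1 (Slc23a3, 315 bp), which is 4 of 6 general genes, and for none of Rag1, Rag2 and Dntt. Tmem167, Desi1 and Abhd13 run away from the member on the other strand, and the peaks at the starts of Xrcc4 and Xrcc6 also lay within 1 kb of an end of the neighbour. At Lig4 this held for the peak towards Abhd13 and not for the peak in its body. Of the 1973 genes with such a close neighbour 1441 had a peak at a start, against 5206 of the 15519 others. The nearest other gene end was 17004 bp from the start of Rag1, 4319 bp from that of Rag2 and 32684 bp from that of Dntt.

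Peaks in the body, with their summit inside the gene and over 1 kb from its ends, were present in 7 of 10 genes, against 18.4% of all protein-coding genes. There were 6 in Dntt, 5 in Xrcc6, 2 in Rag2 and 1 each in Rag1, Prkdc, Xrcc4 and Lig4. At Rag1, Rag2 and Dntt these counts include the wide peak over the start, since its summit lay further than 1 kb inside. Counts of general genes include start peaks too. The body peak of Lig4 had its summit 506 bp downstream of 1 of its starts. Of the 5 in Xrcc6, 2 lay at the start in the promoter table, and 1 had its summit 2.6 kb upstream of that start. Per 10 kb of gene there were 2.56 in Rag2, 1.98 in Dntt and 0.886 in Rag1. The general genes had between 0 in Xrcc5, Nhej1 and Dclre1c and 1.31 in Lig4. Peaks covered 0.25% to 17.3% of the length of the general genes, with a median of 1.41%. This median share is not like for like, because the general genes run from 7661 bp at Lig4 to 240695 bp at Xrcc4. At Lig4, which is about as long as Rag2, 17.3% was covered, against 85.1% of Rag2.

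Within 100 kb, counted by summits and with the gene included, there were 10 peaks at Rag1, the same 10 at Rag2, and 22 at Dntt. The general genes had 9 at Nhej1, 8 at Xrcc6, 6 at Dclre1c, 5 at Xrcc5, 4 at Prkdc, 3 at Xrcc4 and 2 at Lig4. All protein-coding genes had a median of 3, and 9.12% had 10 or more. Dntt stood at percentile 99.5 of all protein-coding genes, Rag1 and Rag2 at 92.1, and the general genes from 39.1 at Lig4 to 85.9 at Xrcc6 and 89.4 at Nhej1. The class medians were 10 and 5. At Nhej1, 7 of the 9 peaks were at ends of other genes, such as Cnppd1 and Retreg2, which share peaks with signal values of 7.22 and 3.43. At Dntt, 2 of the 22 were at ends of other genes.

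Many peaks of the lymphoid-specific loci were weak. With a q-value of at most 0.05, 7 peaks were left at Rag1 and at Rag2 and 15 at Dntt. With −log10 q of at least 5, there were 4, 4 and 7, against 0 at Lig4 to 5 at Dclre1c, and the difference of the class medians fell from 5 to 2. With the same bound, peaks covered 99.9% of Rag1 and 75.3% of Rag2, and the share of Dntt went from 22.5% to 12.3%. Coverage went to 0 at Lig4, from 17.3%, and at Xrcc4, Xrcc5 and Nhej1, and from 14.6% to 8.40% at Xrcc6, while Dclre1c and Prkdc kept 1.41% and 1.48%.

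**Figure D4:**
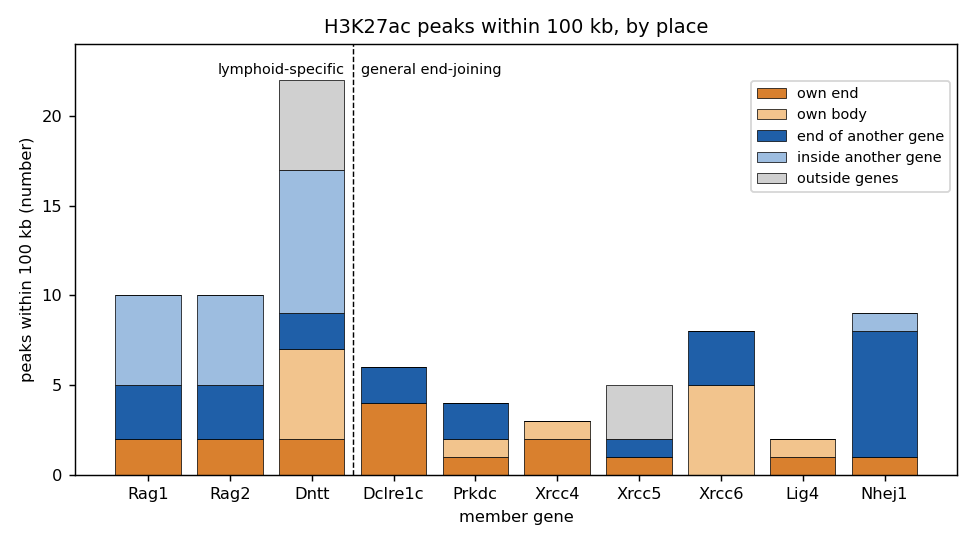
Number of peaks within 100 kb of each gene, stacked by place (at its own end, in its own body, at an end of another gene, inside another gene, or outside genes). Dntt has 22 peaks, and at Nhej1 7 of 9 belong to ends of other genes.

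The CpG content of the promoters gave a background for these peaks. Over 21263 promoters of protein-coding genes, the 250 bases before the start had a median of 10 CpG. A peak lay within 1 kb of the start at 5.12% of promoters with 0 to 2 CpG (95% Wilson interval 4.54% to 5.78%), the class of Dntt. The share was 17.7% (16.4% to 19.0%) with 3 to 5 CpG, the class of Rag1, Rag2 and Xrcc5. It was 63.3% (61.9% to 64.7%) with 21 or more, the class of Xrcc4 with 26, Xrcc6 with 25 and Lig4 with 27 and 28. Dclre1c had 8 CpG and Nhej1 had 9, in a class with a share of 34.8%. The lymphoid-specific genes therefore carried wide peaks at promoters of a kind that rarely had any peak, and most promoters like those of Xrcc4, Xrcc6 and Lig4 had one. These intervals cover counting over promoters only. Among promoters with 0 to 2 CpG and a peak, 8.94% had a peak of 5 kb or more. The share was 4.03% with 3 to 5 CpG, the class of Rag1 and Rag2, and 1.96% with 21 or more.

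**Figure D5:**
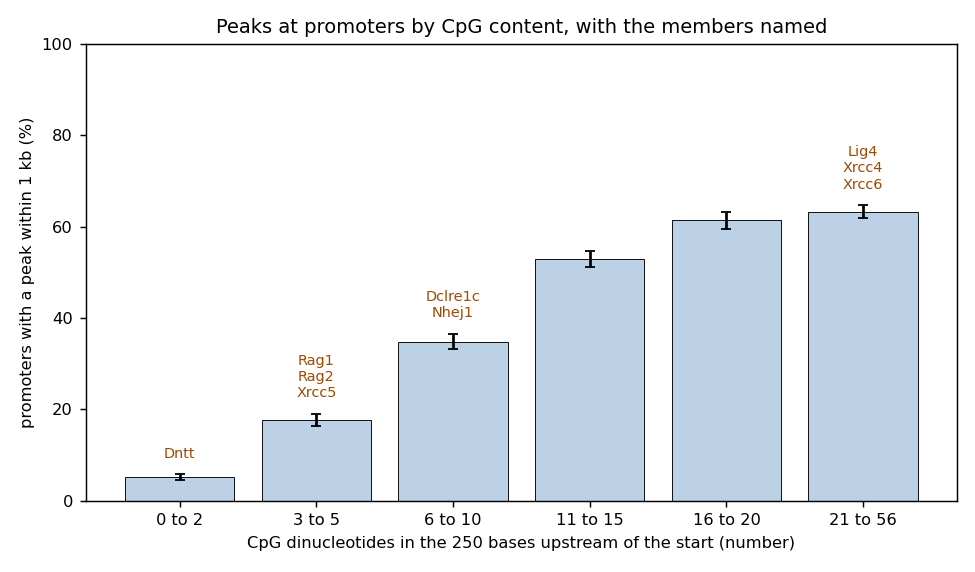
Share of promoters with a peak within 1 kb of the start, by the number of CpG in the 250 bases upstream, with 95% Wilson intervals as error bars and the genes of each class named above its bar. Dntt stands over the lowest bar, 5.12%, and Lig4, Xrcc4 and Xrcc6 over the highest, 63.3%.

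Short motifs were searched on both strands of the same 250 bases, over the 10 promoters of the 9 genes. The E2A-type E-box CAGGTG, which is a special case of the E-box CANNTG, occurred before Rag1 alone, beginning 135 bases upstream of the start, and in 16.9% of all promoters. The general E-box CANNTG occurred before every member except Xrcc4 and in 62.8% of all promoters. The Ikaros-type motif TGGGAA occurred before Rag1 and at 1 of the starts of Lig4 (20.9% of all promoters). The ETS motif CCGGAAG occurred before Xrcc4 and both starts of Lig4 (8.98%). The GC box GGGCGG occurred before Dclre1c, Lig4, Nhej1, Xrcc4 and Xrcc6 (42.6%) and before none of the lymphoid-specific genes. CCAAT occurred before Dclre1c, Rag1 and Xrcc5 (35.4%). None of the 10 windows held the forkhead motif TGTTTAC (2.62% of all promoters), the TATA box TATAAA (11.6%), the recombination signal heptamer CACAGTG (4.59%) or the EBF motif, an inverted repeat (0.832%). These are matches of letters, not sites of binding.

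Most genes in the lists of other DNA repair genes had a peak at an end, against 36.2% of all protein-coding genes. Differences between these lists and the general members were not tested. Among 14 genes of accessory end joining, such as polymerases and end-processing enzymes, 13 had a peak at an end, with Polm the exception. The strongest were Xrcc1 (11.11), a scaffold of single-strand break repair, Aptx (9.43) and Paxx (7.96), a Ku partner. Of 12 genes of the break response, 10 had a peak, with Mre11a (9.52), Atm (7.19) and H2ax (5.84) the strongest and Chek2 and Trp53bp1 without. Of 15 genes of homologous recombination, 12 had a peak, led by Brca1 (9.34), Rad51b (6.55) and Brca2 (6.27), and Rad54l, Rbbp8 and Xrcc3 had none. The median of the highest signal values was 5.26, 4.44 and 5.35 in these lists, against 4.29 for the general members. None of these lists held a gene with a peak of 5 kb or more at an end. Hmgb1 and Hmgb2, whose products help RAG bend DNA, had signal values of 9.83 and 9.58 with widths of 1827 and 2069 bp.

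The transcription factors known to act at Rag or Dntt included genes with wide peaks at an end and genes without. Of 13 such genes 11 had a peak at an end, against 36.2% of all protein-coding genes. The strongest were Foxo1 (12.43), Ebf1 (12.42) and Foxp1 (10.96), and Ets1 and Gfi1b had none. A peak of 5 kb or more lay at an end of 5 of them, against 0.599% of all protein-coding genes. Others had narrower peaks, such as Runx1 (3516 bp), Tcf3 (2464 bp), Myb (2053 bp) and Bcl11a (955 bp). The median number of peaks within 100 kb was 23 over the 13 genes, against 3 over all protein-coding genes. Likeness to the lymphoid-specific genes was not tested. This list overlaps with the B-lineage markers, of which 6 of 10 had a peak of 5 kb or more at an end. Such a peak also lay at 2 of 10 HSC/MPP markers, Kit (6129 bp) and Meis1 (11746 bp). Among T-lineage markers it lay at 1 of 10, Zap70 (6132 bp). The plasmacytoid dendritic, erythroid and granulocyte lists held none.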

How the data were processed

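The authors deposited 1 peak list for 4 H3K27ac libraries together over 1 input library. The submitters' processing notes name BWA, MACS2 and the build mm10. Other steps and filters are not given in the sources used here. The list has no header. Per peak, the authors deposited a score (equal in 22939 lines to the whole part of 10 times −log10 p, with a ceiling of 1000), a signal value read as a fold ratio over background, −log10 p-values and −log10 q-values, and a summit position. They served for description, ranking and filtering within the list. Peaks were intersected with gene spans of RefSeq GRCm38.p6, the same build, in Python 3.11.15 with pandas 2.3.3. Coordinates are 1-based. The table gives no exons, so introns, exons and UTRs were not told apart. Overlap counts were tested on simulated peaks.

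The members and lists were chosen with earlier results of these data known, and the 5 kb width, the CpG classes, the layout at starts and the 500 bp reach to neighbours were set after values were seen. All 10 members, neighbours at their peaks, the 3 strongest genes of each list and those without a peak (up to 5), and the 5 genes most like each lymphoid-specific gene were named, except that some items are not reported here. Stricter lists, other windows, summits and merged peaks were tried. There were no per-library values, so no test was made.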

Additional observations from a re-analysis of the deposited data

How the results depend on the processing

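The number of members with a peak at an end was between 6 and 9 in the 7 alternatives tried. When −log10 q had to reach 5, or the signal value 4, the loss was all in the general genes, from 6 to 3, and with the summit inside the window the lymphoid-specific ones went from 3 to 2. The difference of the median signal values at ends, lymphoid-specific minus general, was 5.02 and turned to -1.70 with the summit inside the window. It was 3.58 to 5.07 in the other alternatives. With −log10 q of at least 5, the 69 distinct peaks within 100 kb of a member became 28, the 17 body peaks 6, and the difference of the median counts within 100 kb went from 5 to 2. When the signal value had to reach 4, these became 27, 6 and 1, and 0 of the 3 Rag elements had a peak, where 1 had one before. Merging peaks within 1 kb gave 44, 11 and 2. The difference was 3 after peaks with q above 0.05 were dropped. Without peaks whose summit lay within 1 kb of an end of another gene it was 7, with 45 distinct peaks left. Judged by overlap, as in the report, it was 6, with 41 distinct peaks left, and with 50 kb in place of 100 kb it was 6. In each of these settings fewer peaks entered by construction. Chosen after seeing the data were the alternatives for the related lists, the Rag elements, coverage and start layout, the merged median difference, the overlap rule for ends of other genes, and those for the signal difference other than the 2.5 kb window and the summit inside the window.

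No paired analysis was possible because single libraries have no column in the peak list, which also prevented leaving any of them out. Depth is unknown and the precision of the weak peaks could not be given.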

Other observations

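Protein-coding genes with the most similar peak counts were sought for each lymphoid-specific gene, by the distance of log2(count + 1) over peaks at the ends, in the body and within 100 kb, with ties ordered by the signal value at the end. For Rag1, 16 genes had the same 3 counts, and those nearest in signal value were Max, Fam160b1, Ube2b, Mettl7a1 and Birc3. Their widest peaks at an end were 6466, 4085, 860, 788 and 1670 bp, against 11691 bp at Rag1. For Rag2, 11 genes had the same counts, among them Polr1d, Rap1b, Impdh1 and Rb1, with widths from 912 to 1728 bp, against 7955 bp at Rag2. For Dntt no gene had the same counts. The nearest were Rhoh at a distance of 0.227, then Rnf41, Crtc3, Ptpn14 and Phf20 at up to 0.477, and their widest peaks were 583 to 2667 bp, against 5263 bp at Dntt. Width did not enter this matching. Rag1, Rag2 and Dntt stood at percentiles 99.8, 99.5 and 98.5 by width among genes with a peak at an end. The narrower peaks of the matched genes therefore add nothing to those percentiles.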
